A study of Homo sapiens with 12 samples.

Results

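The transcriptomes of A375, an established line from human cutaneous melanoma, and of 253J, an established line from human bladder carcinoma, were compared in the libraries of cells that had taken up no bead. These are 6 of the 12 poly(A) RNA-seq libraries of the series, 3 from each line. Cells of each line had been given fluorescent particles of 2.4 µm for 24 h and separated by flow cytometry, and the bead-negative cells were grown for a few generations and separated again until 5 rounds of sorting had been made. All 6 libraries therefore come from cells selected in every round for the absence of uptake, and neither line is represented here by an unsorted population. The other 6 libraries come from the bead-positive branch of the same lines and serve below as libraries that the comparison did not use. Each tumour type is represented by 1 line, so a difference between the lines cannot be told apart from a difference between their tumour types. Nothing in the labels says whether the 3 libraries of a line came from separate cultures, so the p-values may measure a technical spread.

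Melanocytes arise from the neural crest, and the transcription factor MITF directs their pigment programme by binding E-box motifs, above all the M-box, upstream of genes such as TYR, DCT, PMEL and MLANA. The urothelium that lines the bladder expresses simple-epithelial keratins, E-cadherin and uroplakins, and its luminal differentiation is governed by factors that include PPARG, GATA3, FOXA1, GRHL3 and ELF3. Carcinoma cells of epithelial origin are held together by cadherins and desmosomes and fixed to a basement membrane by the laminin-binding integrins, whereas melanoma cells tend to show N-cadherin and matrix genes of the mesenchyme.

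Promoter stretches of pigment genes are shown because these genes were among the clearest differences between the lines. The capitals mark the M-box core CATGTG, searched on both strands, so that CACATG is the same motif on the other strand, and the sequences are those of RefSeq on GRCh38.p14, read 5′ to 3′ along the gene.
TYR, chr11:89177741-89177806, plus strand: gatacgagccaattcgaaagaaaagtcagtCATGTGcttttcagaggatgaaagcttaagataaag
TYR, chr11:89177833-89177898, plus strand: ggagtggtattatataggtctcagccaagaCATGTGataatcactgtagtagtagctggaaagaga
GPNMB, chr7:23246683-23246748, plus strand: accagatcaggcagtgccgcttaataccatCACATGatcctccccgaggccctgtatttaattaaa
TRPM1, chr15:31161133-31161198, minus strand: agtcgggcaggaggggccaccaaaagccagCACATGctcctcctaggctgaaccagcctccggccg
The motif lay 104 and 12 bases before the start site in TYR, 62 bases before it in the GPNMB stretch shown and 8 bases before it in TRPM1. GPNMB held a further core 123 bases before the start site, which is not shown. Of 16 pigment genes searched, 13 had a promoter of 300 bases in the table, and 5 of these held the core, while 11.2% of all 27305 promoters of this length did. The windows of DCT, MLANA and MITF held none, which says only that these letters are not in this window. Each gene was searched at a single start site. The DCT window, chr13:94549357-94549656, lies outside the gene as annotated for its level, chr13:94436808-94479682. The MITF window, chr3:69739214-69739513, lies at the 5′ end of a gene annotated at chr3:69739435-69968337. Other start sites of these genes were not searched.

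A second set belongs to genes of the NRF2 programme, the answer of cells to oxidants and electrophiles, in which both lines had members at high level. Here the capitals mark the core TGACNNNGC of the antioxidant response element, where N is any base, searched on both strands.
TXNRD1, chr12:104215650-104215718, plus strand: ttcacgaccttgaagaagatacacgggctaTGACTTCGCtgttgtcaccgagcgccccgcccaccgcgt
GCLM, chr1:93909426-93909494, minus strand: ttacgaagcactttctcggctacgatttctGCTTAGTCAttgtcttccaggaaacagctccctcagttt
ME1, chr6:83431150-83431218, minus strand: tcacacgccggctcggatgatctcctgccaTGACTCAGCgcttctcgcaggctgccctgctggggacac
Of 21 such genes, 14 had a promoter in the table and 3 held the core, against 13.6% of all promoters. TXNRD1 and ME1 each held a further core that is not shown. TXNRD1 and GCLM were higher in 253J and ME1 in A375, as described below.

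The negative libraries held 15336696 to 17916519 reads, and mitochondrial transcripts took 6.71% to 7.37% of the reads in A375 and 9.19% to 10.6% in 253J. Levels below are normalized read counts after the 6 columns had been rescaled together by median of ratios, with the values of replicates 1, 2 and 3 in that order, and a log2 difference is A375 minus 253J on the log2(level + 1) scale. Libraries of a line correlated across genes at 0.989 or above and libraries of different lines at 0.610 to 0.652, as a description of log2 levels. Some libraries of a line were much closer than others. Replicates 1, 2 and 3 had sample numbers 5, 21 and 22 in A375 and 11, 12 and 24 in 253J. Low numbers (at most 12) and high ones were thus unequally spread over the lines, and the labels do not say what they mean. The numbers are close for A375 replicates 2 and 3 and for 253J replicates 1 and 2. For these pairs the chi-square of the reads over its degrees of freedom was 1.43 and 1.29. For the other pairs it was 14.1 to 17.1. When each of the pairs with close numbers was averaged and counted as 1 sample, 9910 genes passed. With low or high number as a block in the fit, 12023 passed. Of 14931 genes with a mean level of at least 10, limma called 11398, or 76.3%, at an adjusted p of 0.05. The A375 level was higher for 5836 genes (39.1%) and the 253J level for 5562 (37.3%), and 5470 of the called genes differed by less than 2-fold. Because most genes passed, the lists below are read mainly by a stricter rule, called and at least 4-fold different, which held for 1567 genes higher in A375 (10.5%) and 1840 higher in 253J (12.3%). In each of these 3407 genes the 3 libraries of one line lay above the 3 of the other, which the 4-fold rule itself makes nearly certain. A total of 581 of the genes 4-fold higher in A375 had at most 3 reads over the 3 libraries of 253J, and 445 of those higher in 253J had at most 3 reads in A375. The shares of 10.5% and 12.3% are the background for each list below, and a list near them says little about its members as a set. A gene near 0 in either line reached the mean of 10 only through the other line. Members low in both lines were not tested, so each share is of the tested members and not of the list.

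**Figure D1:**
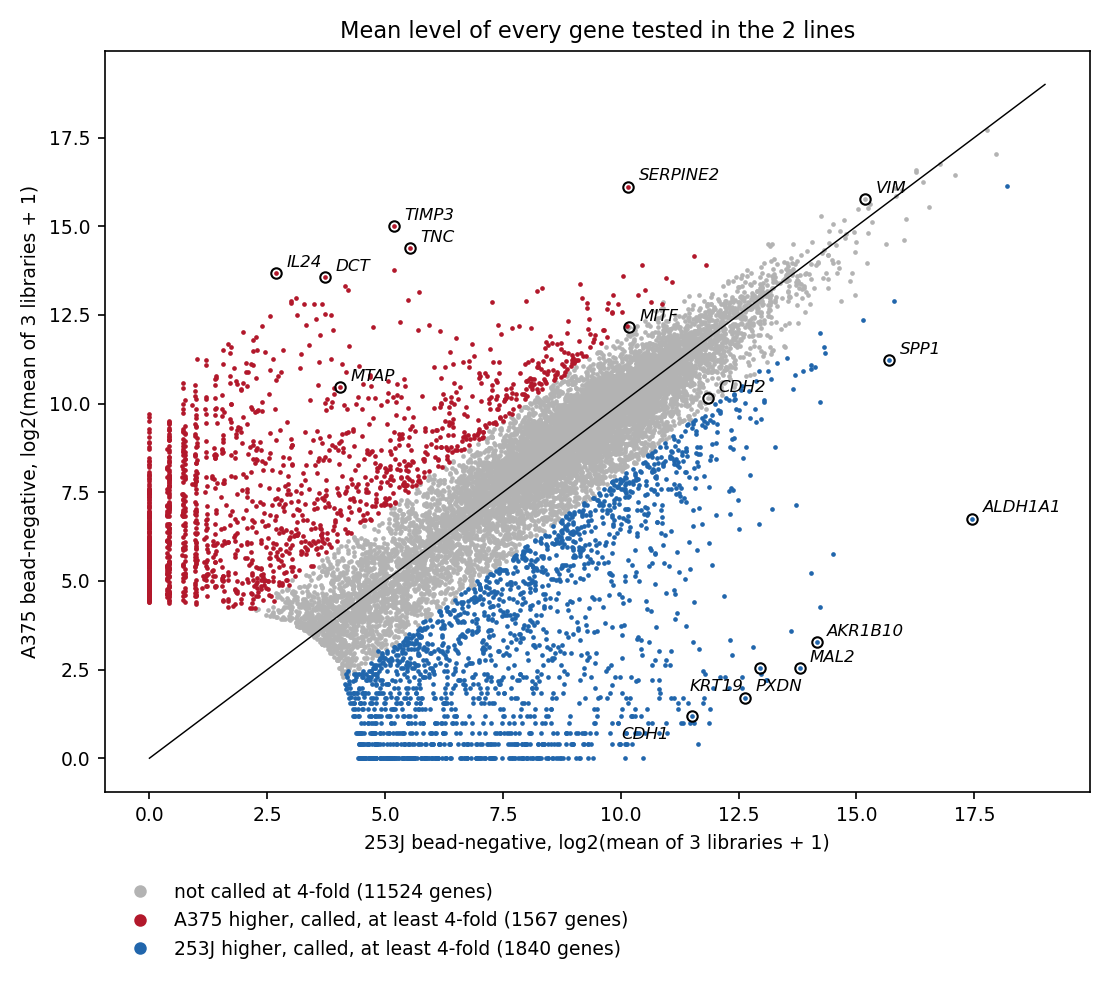
Mean level of each of the 14931 genes tested in bead-negative 253J (horizontal) and A375 (vertical), both as log2(mean of 3 libraries + 1), with the line of equal levels. The 1567 red and 1840 blue points were called and at least 4-fold different, and labelled genes such as TIMP3, SERPINE2, ALDH1A1 and AKR1B10 lie far from the line while VIM lies close to it.

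The genes with the largest differences towards A375 among those with a mean of at least 50 were IL24, TIMP3, TFAP2C, MAGEA4, RXRG, DAAM2, CTHRC1, ST6GAL1, MX2, PRRX1, LPL and LOXL4. IL24, a cytokine first described in differentiating melanoma cells, stood at 9956, 14832 and 14809 in A375 and 7.77, 3.54 and 5.08 in 253J (log2 difference 11.02 ± 0.25 SE, adjusted p = 2.02e-08). TIMP3, an inhibitor of matrix metalloproteinases held in the matrix, was at 44908, 26412 and 27015 in A375 and 88.5, 7.08 and 11.2 in 253J (log2 difference 10.59 ± 0.79 SE, adjusted p = 5.88e-06), and 253J replicate 1 was the highest of its line. TFAP2C, a transcription factor of the AP-2 family, was at 2539, 2414 and 2458 in A375 and 1.01, 0 and 2.03 in 253J (a ratio of 2570.0, 95% counting interval 880.0 to 12500.0). These genes were chosen among those whose libraries did not overlap between the lines, so their separation is no further result.

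Towards 253J the corresponding genes included LRRN4, MAL2, PXDN, PTPRD, AKR1C1, CA2, AKR1B10, SLC2A2, ALDH1A1, PLAU and NPNT. ALDH1A1, which oxidizes retinal to retinoic acid, was at 160328, 166241 and 212143 in 253J and 120.3, 96.6 and 104 in A375 (log2 difference -10.70 ± 0.12 SE, adjusted p = 4.2e-09). MAL2, a protein of transport to the apical membrane of epithelia, was at 13684, 13953 and 14940.3 in 253J and 2.92, 5.76 and 5.85 in A375 (log2 difference -11.29 ± 0.21 SE, adjusted p = 9.07e-09). PXDN, the peroxidase that crosslinks collagen IV, was at 6352, 6330.0 and 6521 in 253J and 4.86, 0.98 and 0.97 in A375 (log2 difference -11.14 ± 0.39 SE, adjusted p = 1.03e-07). SLC2A2, a glucose transporter of liver, pancreas and kidney, was at 2853, 2802 and 3332 in 253J and 0.97, 0 and 1.95 in A375 (a ratio of 3090.0, 95% counting interval 1060.0 to 15000.0). The A375 libraries held almost no reads of PXDN and SLC2A2.

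A375 expressed the pigment programme, with exceptions. Of 26 listed melanocyte genes 20 were tested, of which 16 were higher in A375, 15 of them at 4-fold (75%, against 10.5% of all genes), and 2 were higher in 253J, with a median log2 difference of 5.09. DCT, which acts late in eumelanin synthesis, was at 6957, 14826 and 14469 in A375 and 20.4, 6.27 and 10.2 in 253J (log2 difference 9.89 ± 0.42 SE, adjusted p = 2.56e-07). PMEL, the fibril protein of melanosomes, was at 2391, 4399.6 and 4332 in A375 and 80.8, 74.6 and 115 in 253J (log2 difference 5.32 ± 0.26 SE, adjusted p = 4.73e-07). MLANA, a melanosomal antigen, was at 40.8, 91.8 and 64 in A375 and 1.01, 0 and 5.08 in 253J (log2 difference 4.78 ± 0.63 SE, adjusted p = 0.000178). TYR, the rate-limiting enzyme of melanin synthesis, was at 47.5, 67.6 and 90.2 in A375 and had no read in 253J (at least 71.3-fold higher). Every A375 library lay above every 253J library in all 4 genes.

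GPNMB, a melanosomal glycoprotein, was at 12766, 14674 and 14554 in A375 and 43.8, 32.9 and 29.5 in 253J (log2 difference 8.60 ± 0.14 SE, adjusted p = 7.21e-09). S100B, a calcium-binding protein used as a melanoma marker, was at 2026, 1597 and 1438 in A375 and 3.94, 0 and 1.02 in 253J (log2 difference 9.60 ± 0.51 SE, adjusted p = 8.03e-07). PAX3, a regulator of melanoblasts, was at 232, 242 and 239 in A375 with no read in 253J (at least 248-fold higher). EDNRB, the endothelin receptor of melanoblasts, was at 581, 754 and 755 in A375 and 2.93, 0 and 1.02 in 253J. In these 4 genes 253J had almost no reads apart from GPNMB. MITF itself was present in both lines, at 3233, 5334 and 5163 in A375 and 1194, 1149.6 and 1134 in 253J (log2 difference 1.95 ± 0.18 SE, adjusted p = 1.8e-05), just short of 4-fold. MC1R, the melanocortin receptor, was at 84.4, 114 and 117 in A375 and 69, 75.5 and 111 in 253J and did not pass the test (adjusted p = 0.22). Each of the genes in these sentences other than MC1R was higher in every A375 library than in any 253J library.

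GPR143 and TFAP2A were the 2 genes of the list higher in 253J. GPR143, a receptor of melanosome membranes, was at 76.8, 86.3 and 85.6 in 253J and 47.5, 36.7 and 57.2 in A375 (log2 difference -0.82 ± 0.19 SE, adjusted p = 0.00491). TFAP2A, a transcription factor of neural crest and epidermis, was at 1729, 1788 and 1729 in 253J and 1183, 958 and 955 in A375 (log2 difference -0.77 ± 0.09 SE, adjusted p = 9.08e-05). With the libraries of high sample number alone GPR143 no longer passed (log2 difference -0.91, adjusted p = 0.15). TYRP1 and OCA2, a further enzyme and a transporter of pigment synthesis, stood below the mean of 10 in both lines, at 3.9 and 3.57 on average in A375, and SLC45A2 at 2.6. SOX10, KIT and SLC24A5 were not analysed here.

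**Figure D2:**
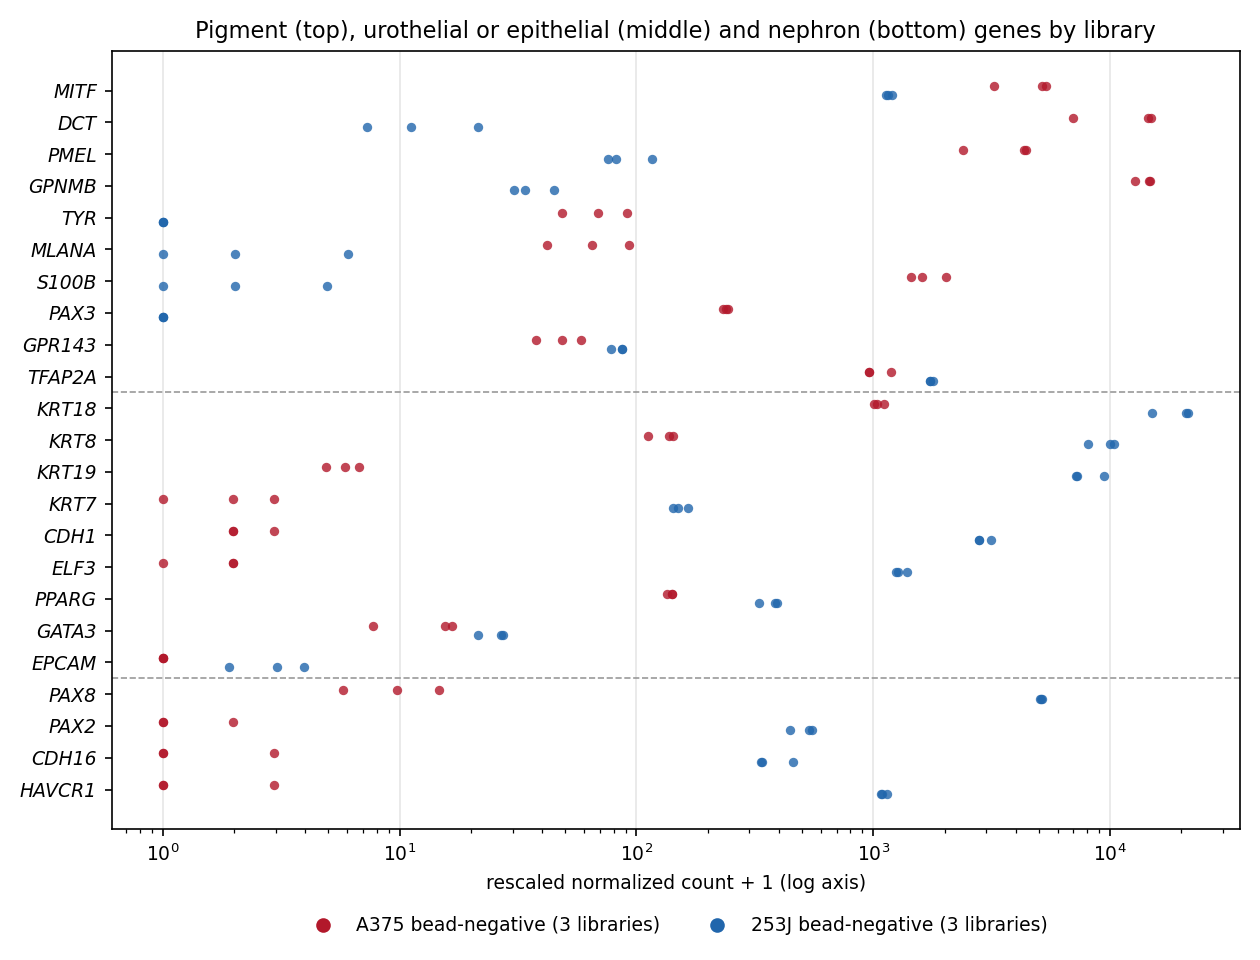
Rescaled normalized count + 1 (log axis) of pigment genes (top), epithelial and urothelial genes (middle) and nephron genes (bottom) in each of the 3 A375 (red) and 3 253J (blue) bead-negative libraries. The red points of DCT, GPNMB and S100B and the blue points of KRT19, CDH1 and PAX8 lie orders of magnitude from those of the other line, while MITF, GPR143, TFAP2A, PPARG and GATA3 differ by less.

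Genes of the neural crest and of undifferentiated melanoma were split. Of 23 tested of 24 listed, 13 were higher in A375 (9 at 4-fold, 39.1%) and 8 in 253J (4 at 4-fold, 17.4%), with a median of 1.32. NES, an intermediate filament protein of neural progenitors, was at 8043, 6685 and 6942 in A375 and 21.4, 7.08 and 2.03 in 253J (log2 difference 9.78 ± 0.61 SE, adjusted p = 1.94e-06). FOXD3, a factor of early neural crest, was at 610.1, 451 and 428 in A375 and 1.01, 0 and 1.02 in 253J. NGFR, the low-affinity neurotrophin receptor, was at 165, 103 and 108 in A375 with no read in 253J (at least 130.0-fold higher). ERBB3, the receptor partner of melanocytes for neuregulin, was at 7207, 7873 and 7822 in A375 and 232, 221 and 311 in 253J (log2 difference 4.91 ± 0.12 SE, adjusted p = 2.84e-08). The receptor AXL, high in dedifferentiated melanoma, went the other way, at 3661, 3425 and 2744 in 253J and 1422, 822 and 913 in A375 (log2 difference -1.67 ± 0.20 SE, adjusted p = 0.000109). EGFR and NRG1, described with the receptors, had the same direction as AXL.

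Mesenchymal genes were mostly higher in A375, but neither line lacked the programme. Of 20 tested of 28 listed, 15 were higher in A375 (11 at 4-fold, 55.0%) and 4 in 253J (0 at 4-fold), with a median of 2.29. PRRX1, a homeobox factor of mesenchyme, was at 3601, 4419.9 and 4341 in A375 and 4.84, 0.91 and 3.05 in 253J (log2 difference 10.17 ± 0.37 SE, adjusted p = 1.15e-07). SNAI2, a repressor of E-cadherin, was at 461, 605 and 579 in A375 and 3.94, 0.91 and 1.02 in 253J (log2 difference 7.68 ± 0.37 SE, adjusted p = 4.54e-07). TWIST1, a regulator of epithelial-mesenchymal transition, was at 414, 491 and 472 in A375 and 42.8, 42.7 and 45.9 in 253J. ZEB1, another such repressor, was close in level, at 807, 933 and 868 in A375 and 674, 621 and 548 in 253J (log2 difference 0.50 ± 0.10 SE, adjusted p = 0.0015). VIM, the vimentin of the mesenchymal cytoskeleton, was at 58552, 53972 and 54417 in A375 and 39706, 39392 and 32799 in 253J (log2 difference 0.58 ± 0.10 SE, adjusted p = 0.00112). N-cadherin, CDH2, was higher in the 253J libraries, at 3832, 3853 and 3385 in 253J and 1328, 1058 and 1024 in A375 (log2 difference -1.71 ± 0.11 SE, adjusted p = 2.08e-06).

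253J expressed simple-epithelial genes. Of 41 listed keratins and epithelial regulators 23 were tested, of which 19 were higher in 253J, 17 of them at 4-fold (73.9%, against 12.3% of all genes), 2 were higher in A375, and the median was -4.62. KRT19, a keratin of simple and ductal epithelia, was at 7196, 7273 and 9374 in 253J and 4.86, 5.76 and 3.9 in A375 (log2 difference -10.41 ± 0.16 SE, adjusted p = 5.88e-09). KRT8 was at 10399, 10000.0 and 8082 in 253J and 111, 142 and 137 in A375 (log2 difference -6.18 ± 0.13 SE, adjusted p = 1.21e-08). Its partner KRT18 was at 21413, 20809 and 15076 in 253J and 1109.6, 1033 and 1005 in A375 (log2 difference -4.17 ± 0.13 SE, adjusted p = 6.49e-08). KRT8 and KRT18 share exon bases on opposite strands and no source states whether the counting used strand, so reads of the pair cannot be fully told apart. E-cadherin, CDH1, was at 2783, 2786 and 3146 in 253J and 1.94, 0.98 and 0.97 in A375 (log2 difference -10.33 ± 0.19 SE, adjusted p = 9.32e-09). ELF3, an epithelial ETS factor, was at 1272, 1251 and 1380.2 in 253J and 0, 0.98 and 0.97 in A375 (a ratio of 2020.0, 95% counting interval 558 to 16700.0). The libraries of the lines did not overlap in any of these genes, and KRT18 was still abundant in A375.

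The tight junction protein CLDN1 was at 10248, 10228 and 9271 in 253J and 686, 316 and 302 in A375. OCLN was at 193, 188 and 213 in 253J and 2.92, 0 and 0 in A375. AP1M2, an adaptor subunit of basolateral sorting, was at 1618, 1604 and 1394 in 253J and 14.6, 6.74 and 4.87 in A375. CLDN4 overlapped between the lines and did not pass the test, at 49.6, 57.7 and 77.5 in 253J and 45.6, 68.5 and 69.9 in A375 (log2 difference -0.01, adjusted p = 0.982). The 2 epithelial genes higher in A375 were ESRP1 and DSP. ESRP1, a splicing regulator of epithelia, was at 355, 300.4 and 298 in A375 and 0, 0.91 and 2.03 in 253J (a ratio of 331, 95% counting interval 113 to 1610.0). DSP, the desmosomal plakin, was at 87.3, 110.2 and 113 in A375 and 2.93, 0 and 1.02 in 253J (log2 difference 5.70 ± 0.46 SE, adjusted p = 9.3e-06). Both are known from epithelial cells and were near 0 in the line with the higher keratins.

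The bladder label of 253J was matched by some markers and not by others. Of 25 listed luminal urothelial genes 17 were tested, with 13 higher in 253J (9 at 4-fold, 52.9%) and 3 in A375 (1 at 4-fold, 5.88%). The median was -3.61. KRT19 is in this list and in that of the simple keratins above, so the counts are not separate. ERBB3, given above, was the member 4-fold higher in A375. PPARG, the nuclear receptor of urothelial differentiation, was at 328, 389 and 384 in 253J and 141, 133 and 139.7 in A375 (log2 difference -1.40 ± 0.10 SE, adjusted p = 5.84e-06). FGFR3, a receptor often altered in bladder cancer, was at 213, 208 and 177 in 253J and 17.5, 15.4 and 13.6 in A375 (log2 difference -3.61 ± 0.17 SE, adjusted p = 4.19e-07). GRHL3, a factor of umbrella cells, was at 88.5, 112 and 179 in 253J with no read in A375 (at least 130.0-fold higher). GATA3 was low in both lines, at 26.2, 25.8 and 20.4 in 253J and 15.6, 6.74 and 14.5 in A375 (log2 difference -0.99 ± 0.32 SE, adjusted p = 0.0228), and it was lost in 4 alternative fits, among them those without 253J replicate 1 or 2. EPCAM, the adhesion molecule of most carcinomas, was at 2.93, 0.91 and 2.03 in 253J and had no read in A375. KRT7 was at 141, 164 and 149 in 253J and 0, 0.98 and 1.95 in A375 (a ratio of 157, 95% counting interval 53.5 to 765). KRT15, a basal keratin, was at 159, 146 and 168 in 253J and 4.86, 0.98 and 0 in A375. UPK1A, UPK1B, UPK2, UPK3A, UPK3B, KRT20, KRT5 and TP63 were not analysed here, so the most specific urothelial markers give no check of the label. GATA3 and EPCAM were low in 253J, and the identity of the line was not tested.

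Genes known for nephron epithelium were at high level in 253J, a set looked up after the levels of SLC2A2 and HAVCR1 had been seen and therefore given as a description with no test. Of 38 such genes 29 had values, of which 14 were at least 4-fold higher in 253J and 4 at least 4-fold higher in A375. Of all genes tested 12.3% and 10.5% were. The other 11 had a mean level below 10 or differed by less than 4-fold. The 14 include SLC2A2 and HAVCR1, which prompted the set, and VCAM1 and CDH6, which are also in the adhesion lists, so the count is no independent support. PAX8, a factor of kidney, thyroid and Müllerian development, was at 5087, 5074 and 5147 in 253J and 13.6, 4.78 and 8.77 in A375. PAX2 was at 444, 536 and 549 in 253J and 0, 0.98 and 0 in A375. CDH16, the kidney-specific cadherin, was at 334, 339 and 458 in 253J and 0, 0 and 1.95 in A375. HAVCR1, a marker of injured proximal tubule, was at 1076, 1144 and 1088 in 253J and 0, 1.95 and 0 in A375. In A375 each of these stayed near 0 apart from PAX8. CLDN16, the magnesium-handling claudin of the thick ascending limb, was at 2040.3, 2059.9 and 2339 in 253J and 3.89, 1.95 and 0.97 in A375. SLC4A4, a bicarbonate transporter of proximal tubule, was at 1071, 1124 and 1100.1 in 253J and 0.97, 0 and 0.97 in A375.

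These 6 genes stood apart from A375 in every 253J library. They were also at high level in the bead-positive 253J libraries, with PAX8 at 5327 ± 221 and CDH16 at 288 ± 38.5 (SD, n = 3). Other genes of the set did not follow this direction. WT1, a factor of podocytes and early nephrons, was at 336, 289 and 295 in A375 and 7.77, 15.1 and 4.06 in 253J. CUBN, a receptor of proximal tubule, was at 532, 355 and 347 in A375 and 10.7, 14.3 and 14.2 in 253J. ANPEP, a brush-border peptidase, was at 1199, 1463 and 1486 in A375 and 1.92, 0 and 0 in 253J. AQP1 was at 8.78, 8.9 and 14.2 in 253J and 2.92, 13.5 and 9.75 in A375, and HNF4A, LRP2 and UMOD were not analysed here. The libraries are called 253J below as their labels have it.

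The cancer-testis antigens tested, genes of the germ line that some tumours switch on, were mostly higher in A375. Of 33 listed 20 had values and 17 were tested. Of these, 14 were 4-fold higher in A375 (82.4%) and 2 in 253J (11.8%), with a median of 8.65. Members low in both lines are left out of these shares, and 5 of the 17 had reads in 1 line only. MAGEA4 was at 8135, 7524 and 7327 in A375 and 15.5, 3.54 and 2.03 in 253J (log2 difference 10.29 ± 0.54 SE, adjusted p = 7.42e-07). MAGEC2 was at 1673, 1517 and 1433 in A375 and 6.76, 0 and 2.03 in 253J. PAGE5 was at 844, 847 and 827 in A375 with no read in 253J (at least 874-fold higher). PRAME, a repressor of retinoic acid signalling, was present in both lines, at 7236, 7911 and 7799 in A375 and 2565, 2653 and 2564 in 253J (log2 difference 1.56 ± 0.06 SE, adjusted p = 1.37e-07). MAGED1, a ubiquitous relative of the family, was at 4198, 4251 and 4778 in 253J and 1127, 1053 and 1075 in A375 (log2 difference -2.02 ± 0.07 SE, adjusted p = 8.71e-08). TEX15, a meiotic protein, was at 115, 111 and 79.5 in 253J and 17.5, 7.71 and 14.5 in A375 (log2 difference -2.90 ± 0.31 SE, adjusted p = 4.99e-05). MAGEA3, MAGEA6 and MAGEA12 are near-identical in sequence, so their single values are uncertain although the direction was the same in each.

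The HOX clusters, whose genes record position along the body axis, differed in single members. Of 31 tested of 39 listed, 16 were higher in A375 (6 at 4-fold, 19.4%) and 11 in 253J (2 at 4-fold, 6.45%). HOXD13, the most distal gene of its cluster, was at 323, 318 and 297 in A375 and 1.01, 0 and 1.02 in 253J (a ratio of 488, 95% counting interval 135 to 4040.0). HOXA13 was at 88.3, 82.1 and 107 in A375 and 4.84, 4.45 and 4.06 in 253J. HOXA9 was at 1468, 1476 and 1231 in 253J and 7.78, 6.74 and 4.87 in A375 (log2 difference -7.56 ± 0.18 SE, adjusted p = 2.41e-08). HOXA7 was at 219, 218 and 231 in 253J and 0.97, 2.93 and 6.82 in A375 (log2 difference -5.83 ± 0.45 SE, adjusted p = 6.66e-06). HOXB3 overlapped between the lines and did not pass, at 562, 492 and 537 in A375 and 509, 493 and 581 in 253J (log2 difference 0.01, adjusted p = 0.934). The HOX genes overlap antisense transcripts, so HOXA7 and HOXA9 are uncertain in size.

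**Figure D3:**
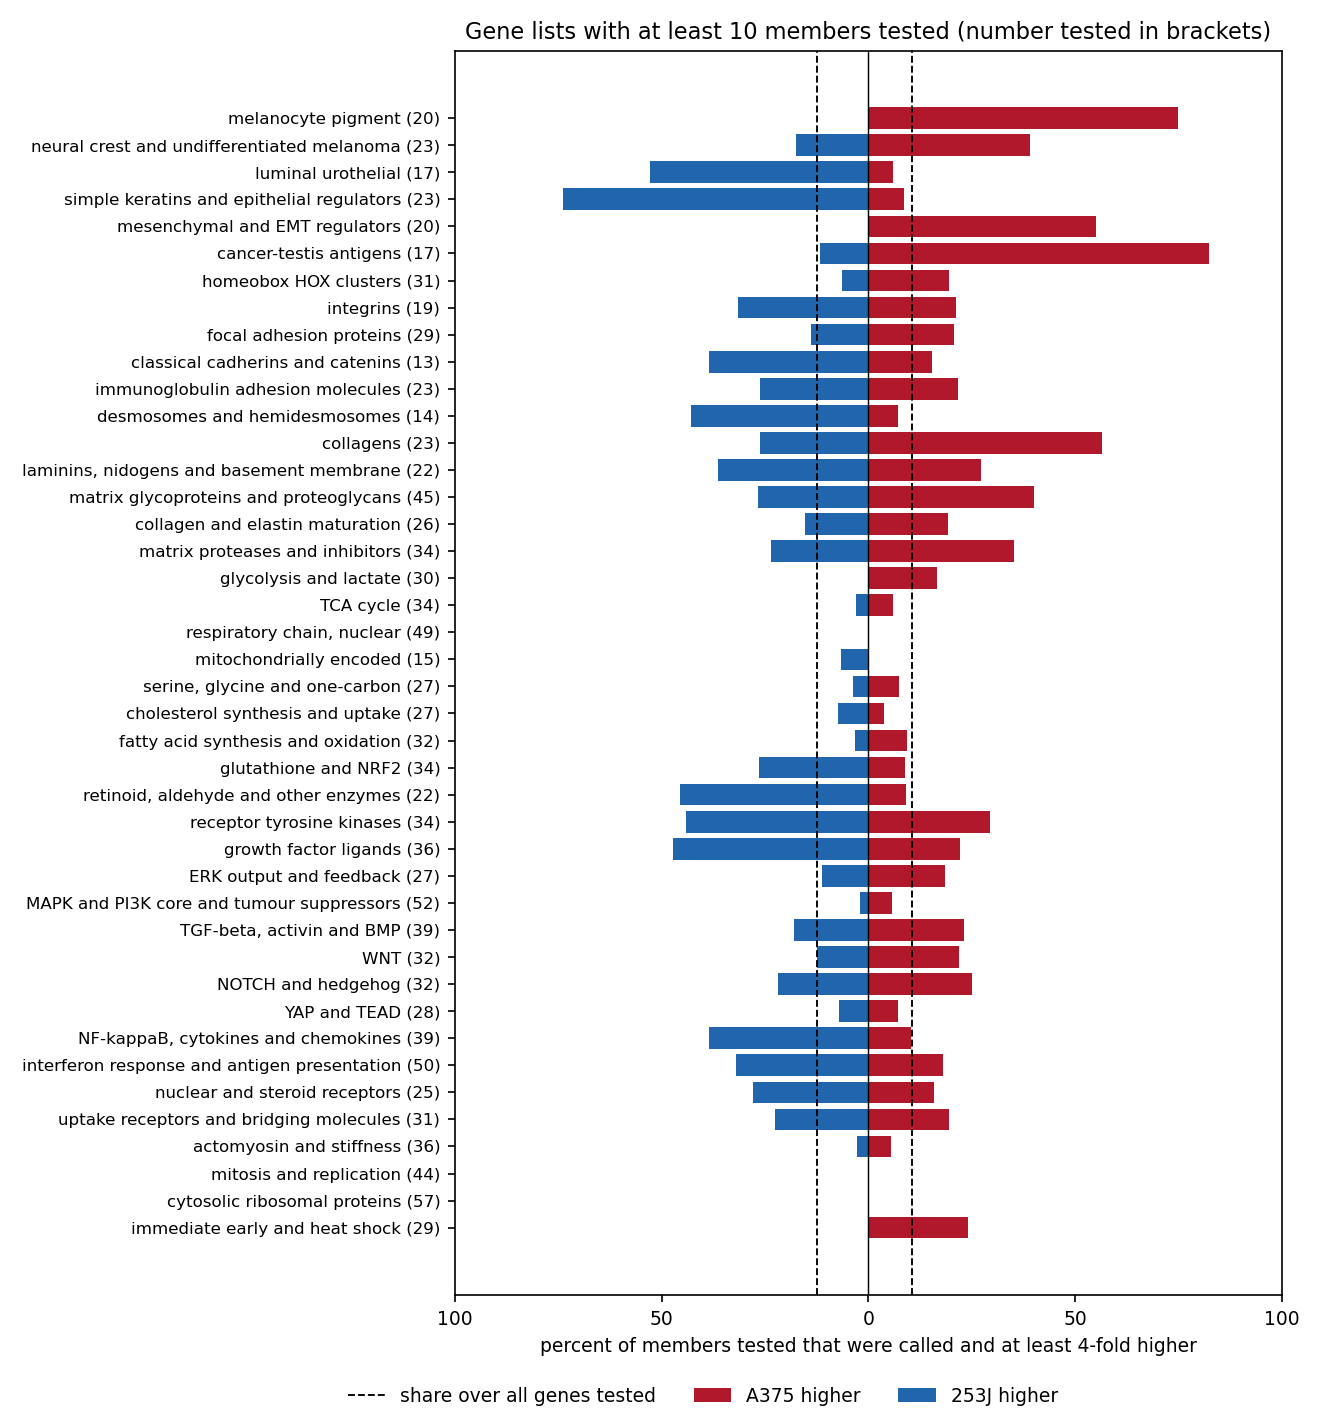
Percent of the tested members of each gene list shown that were called and at least 4-fold higher in A375 (red, to the right) or in 253J (blue, to the left), with the number tested in brackets. Dashed lines mark 10.5% and 12.3%, the shares over all genes tested, and the lists on mitosis, ribosomal proteins and the nuclear-encoded respiratory chain have no member at 4-fold.

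The integrin receptors of matrix proteins differed subunit by subunit. Of 19 tested of 25 listed, 8 were higher in A375 (4 at 4-fold, 21.1%) and 8 in 253J (6 at 4-fold, 31.6%). ITGA4, the partner of ITGB1 in the receptor for VCAM1 and fibronectin, was at 1577, 1488 and 1423 in A375 and 1.92, 1.82 and 4.06 in 253J (log2 difference 8.75 ± 0.24 SE, adjusted p = 3.63e-08). ITGA9, its closest relative, was at 476, 816 and 783 in A375 and 4.84, 2.63 and 2.03 in 253J (log2 difference 7.39 ± 0.31 SE, adjusted p = 2.28e-07). ITGA10, a collagen-binding subunit, was at 693, 1399 and 1409 in A375 and 43.8, 39.1 and 35.6 in 253J (log2 difference 4.78 ± 0.27 SE). The 3 subunits had few reads in 253J or, for ITGA10, a clearly lower level. ITGB4, the laminin-binding subunit of hemidesmosomes, was at 2961, 2859 and 3874 in 253J and 7.78, 8.69 and 5.85 in A375 (log2 difference -8.58 ± 0.18 SE, adjusted p = 1.24e-08). ITGA3, another laminin-binding subunit, was at 19350.3, 18511 and 15669.5 in 253J and 1930.1, 2121 and 2224 in A375 (log2 difference -3.09 ± 0.09 SE, adjusted p = 5.77e-08). ITGB6, the epithelial partner of ITGAV, was at 80.8, 79.1 and 49.9 in 253J with 0.97, 0 and 0 in A375. ITGB4 and ITGB6 were near 0 in A375, while ITGA3 was not. The common partner ITGB1 was at 19304, 19185 and 18799.5 in 253J and 3920.4, 4117 and 4068 in A375 (log2 difference -2.24 ± 0.06 SE, adjusted p = 2.74e-08). ITGA6, the partner of ITGB4, was at 7332, 6129 and 6149.8 in A375 and 2052, 1996 and 1472 in 253J (log2 difference 1.84 ± 0.14 SE, adjusted p = 5.28e-06). ITGAV was higher in 253J by a small step (log2 difference -0.52 ± 0.08 SE) and ITGB3 in A375 (log2 difference 0.91 ± 0.15 SE).

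Cadherins and junction genes were split as well. Of 13 cadherins and catenins tested of 25 listed, 2 were 4-fold higher in A375 (15.4%) and 5 in 253J (38.5%). CDH19, a cadherin of Schwann cells and melanocytes, was at 139, 172 and 196 in A375 and 0, 0.91 and 1.02 in 253J (a ratio of 264, 95% counting interval 72.7 to 2180.0). CDH13, anchored by a lipid and not by a membrane span, was at 126, 100.5 and 118 in A375 and 0, 0.91 and 0 in 253J (a ratio of 359, 95% counting interval 64.1 to 14200.0). CDH6 was at 1496, 1664 and 1667 in 253J and 1.94, 2.93 and 5.85 in A375 (log2 difference -8.55 ± 0.29 SE, adjusted p = 8.71e-08). CTNNB1, beta-catenin, was at 6161, 8314 and 8069.8 in A375 and 1937, 1952 and 1782 in 253J (log2 difference 1.98 ± 0.11 SE, adjusted p = 1.28e-06). Its relative JUP, plakoglobin, was at 751, 809 and 1199 in 253J and 65.9, 156 and 184 in A375 (log2 difference -2.85 ± 0.37 SE, adjusted p = 0.000158). Of the 14 genes of desmosomes and hemidesmosomes tested of 21 listed, 6 were 4-fold higher in 253J (42.9%), and 1, DSP, in A375 (7.14%). PKP2, a plakophilin, was at 572, 528 and 482 in 253J and 0, 0.98 and 0.97 in A375 (a ratio of 820.0, 95% counting interval 227 to 6780.0). PERP, a desmosomal tetraspan protein, was at 1241, 1467 and 1341 in A375 and 372, 418 and 330.0 in 253J (log2 difference 1.86 ± 0.10 SE, adjusted p = 1.08e-06).

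Among adhesion molecules of the immunoglobulin family, 23 tested of 33 listed, 5 were 4-fold higher in A375 (21.7%) and 6 in 253J (26.1%). MCAM, known as the melanoma cell adhesion molecule, was at 3660.5, 3766 and 3800.2 in A375 and 6.76, 2.63 and 2.03 in 253J (log2 difference 9.73 ± 0.32 SE, adjusted p = 7.79e-08). L1CAM, a neural adhesion molecule, was at 2706, 2656 and 2768 in A375 and 530.0, 476 and 616 in 253J (log2 difference 2.33 ± 0.09 SE, adjusted p = 1.98e-07). VCAM1, the ligand of the ITGA4 receptor, was at 3123, 3252 and 4074 in 253J and 2.92, 0.98 and 2.92 in A375 (log2 difference -10.11 ± 0.28 SE, adjusted p = 3.71e-08). The receptor subunit was thus high in one line and the ligand in the other. ALCAM was at 5345, 5378 and 4665 in 253J and 120.3, 125 and 107 in A375 (log2 difference -5.44 ± 0.09 SE, adjusted p = 7.21e-09). F11R, a tight junction adhesion molecule, was at 709, 659.6 and 816 in 253J and 38.8, 37.7 and 57.2 in A375. NCAM1 overlapped between the lines and did not pass the test, at 529.6, 597 and 614 in A375 and 558, 569.8 and 632 in 253J (log2 difference -0.02, adjusted p = 0.871).

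Of 29 focal adhesion genes tested of 34 listed, 6 were 4-fold higher in A375 (20.7%) and 4 in 253J (13.8%, near the share of all genes). At any size 16 were higher in 253J. PARVA, an actin-binding partner of integrin-linked kinase, was at 809, 706 and 653 in A375 and 1.01, 0 and 0 in 253J (a ratio of 2260.0, 95% counting interval 405 to 89200.0). Its paralogue PARVB was at 1274, 1405 and 1326 in A375 and 156, 163 and 142 in 253J. ILK itself was at 141, 148 and 130.0 in A375 and 124, 146 and 129 in 253J and did not pass (adjusted p = 0.619). CAV2, a coat protein of caveolae, was at 3121, 3111 and 3080.1 in 253J and 474, 332 and 366 in A375 (adjusted p = 2.03e-07). VCL, vinculin, was at 10177, 10065 and 10414 in 253J and 2359.8, 2265 and 2202 in A375 (log2 difference -2.17 ± 0.05 SE, adjusted p = 2.84e-08). VCL shares exon bases with AP3M1 on the other strand, which was at 1599.8, 1697 and 1515 in 253J and 1205, 1238 and 1243 in A375.

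**Figure D4:**
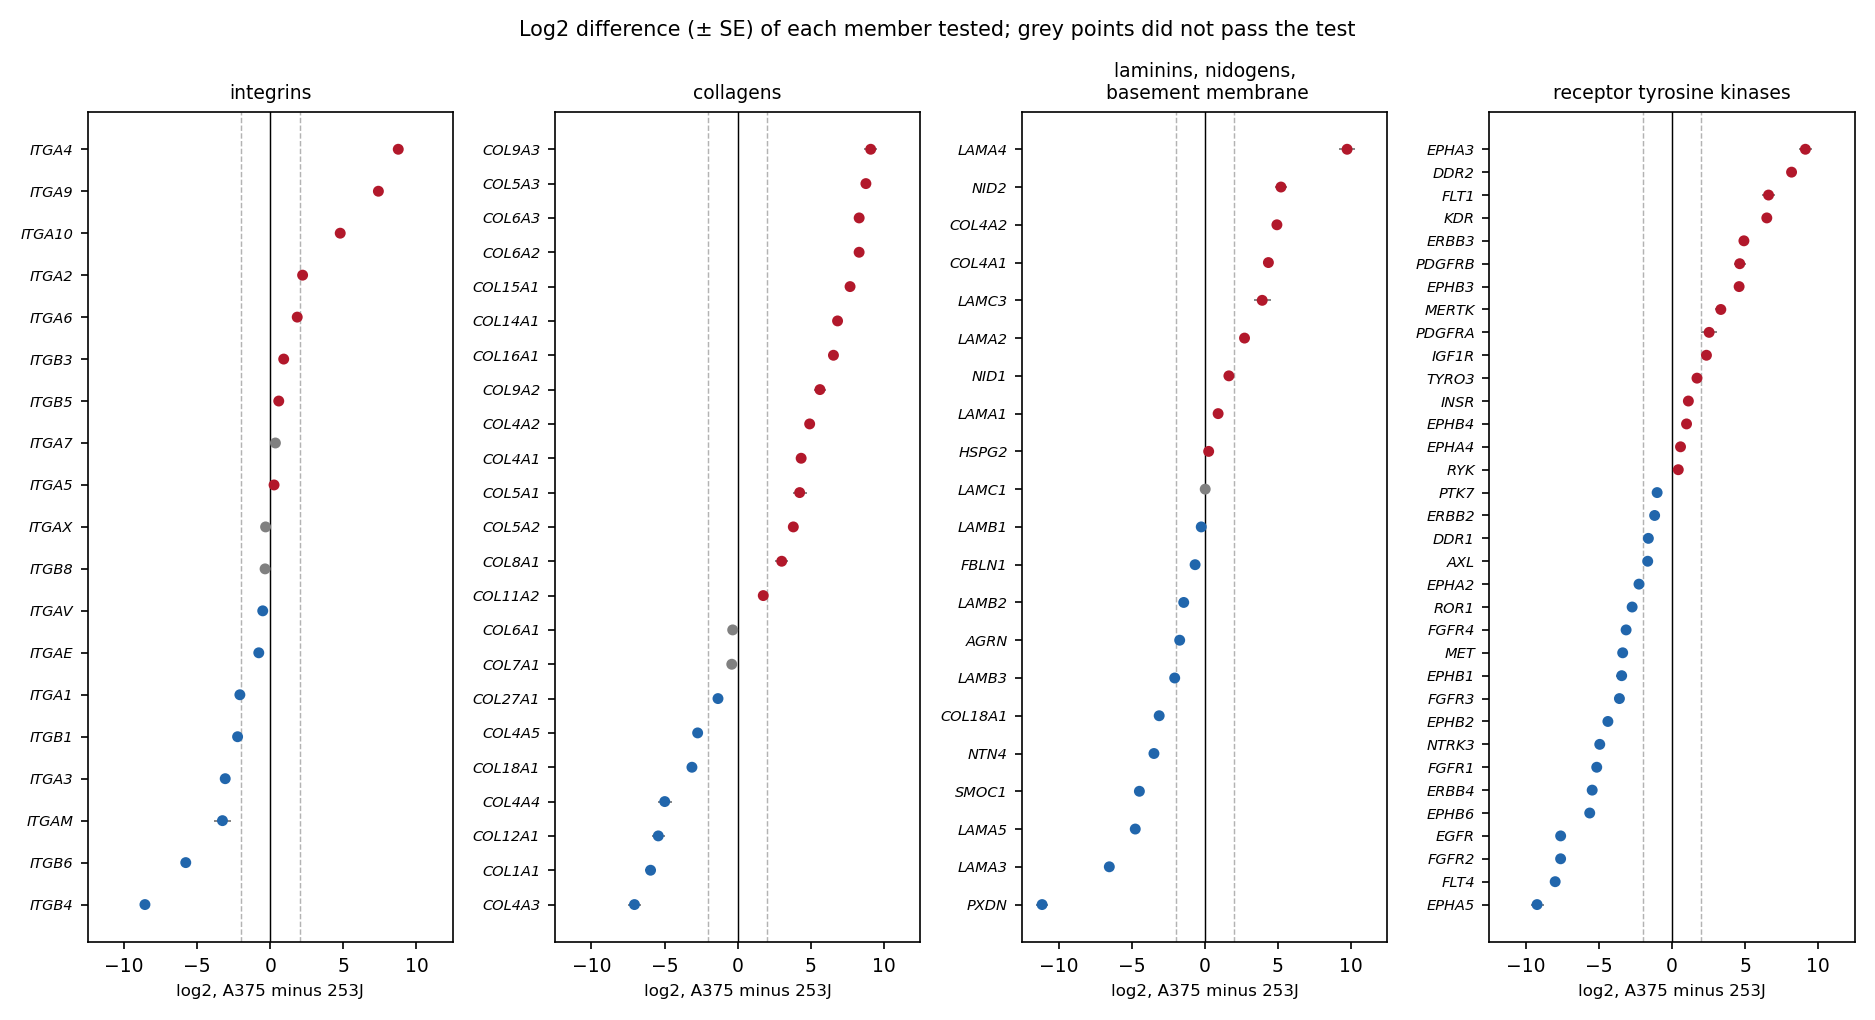
Log2 difference, A375 minus 253J, with its SE, for each tested member of the integrins, collagens, basement membrane genes and receptor tyrosine kinases. Red points were higher in A375, blue in 253J and grey did not pass the test, dashed lines mark a log2 difference of 2 in either direction, and single members range from LAMA4 and COL9A3 in A375 to PXDN, EPHA5 and ITGB4 in 253J.

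Of the 5 matrix lists the collagens had the largest share of members at 4-fold. Of 38 listed 23 were tested, 13 were 4-fold higher in A375 (56.5%) and 6 in 253J (26.1%), with a median of 3.81. COL9A3, a chain of cartilage collagen, was at 2204, 2108 and 2167 in A375 and 6.76, 0.91 and 3.05 in 253J (log2 difference 9.11 ± 0.44 SE, adjusted p = 4.67e-07). COL5A3, a fibril regulator, was at 758, 444 and 506 in A375 and 0, 0 and 1.02 in 253J (a ratio of 1780.0, 95% counting interval 319 to 70300.0). COL4A1 and COL4A2, neighbouring genes, make the widespread collagen of basement membranes and were both higher in A375. COL4A1 was at 4561, 4743 and 4719 in A375 and 238, 228 and 219 in 253J (log2 difference 4.35 ± 0.06 SE). COL4A2 was at 9306, 9749.6 and 10187 in A375 and 311, 311 and 333 in 253J (log2 difference 4.93 ± 0.06 SE, adjusted p = 4.2e-09). COL4A3 and COL4A4, the chains found in kidney glomerulus and lung, had the opposite direction. COL4A3 was at 175, 172 and 229 in 253J and 0, 0 and 1.95 in A375 (a ratio of 296, 95% counting interval 81.7 to 2450.0). COL4A4 was at 321, 333 and 325 in 253J and 23.2, 6.74 and 4.87 in A375 (log2 difference -4.99 ± 0.47 SE). COL1A1, the main fibrillar chain of connective tissue, was at 297, 292 and 309.6 in 253J and 8.75, 2.93 and 1.95 in A375 (log2 difference -5.96 ± 0.41 SE, adjusted p = 3.34e-06). Its partner COL1A2 stood at 7.79 on average in A375 and had no read in 253J.

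Laminins differed by chain. LAMA4, the alpha chain of vessels and mesenchyme, was at 4758, 6265 and 6235 in A375 and 16.6, 1.82 and 5.08 in 253J (log2 difference 9.73 ± 0.57 SE, adjusted p = 1.32e-06). LAMA3 and LAMB3 are chains of the laminin of hemidesmosomes and were both higher in 253J. LAMA3 was at 3775, 3791 and 4231 in 253J and 33.9, 36.7 and 56.2 in A375 (log2 difference -6.54 ± 0.18 SE, adjusted p = 3.53e-08). LAMB3 was at 817, 743 and 848 in 253J and 152, 216 and 212 in A375 (log2 difference -2.06 ± 0.14 SE, adjusted p = 3.54e-06). LAMA5, the alpha chain of most adult epithelia, was at 6587, 6278 and 7656 in 253J and 195, 279 and 287 in A375 (log2 difference -4.76 ± 0.15 SE, adjusted p = 6.89e-08). LAMC1, shared by most laminins, overlapped between the lines and did not pass the test, at 20829, 20465 and 20473 in A375 and 19592, 19619 and 21566 in 253J (log2 difference 0.02, adjusted p = 0.763).

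Of 45 matrix glycoproteins and proteoglycans tested of 55 listed, 18 were 4-fold higher in A375 and 12 in 253J. TNC, tenascin-C of remodelled matrix, was at 18889, 22426 and 22514 in A375 and 67.1, 33.8 and 33.6 in 253J (log2 difference 8.93 ± 0.25 SE, adjusted p = 3.83e-08). CSPG4, a proteoglycan known as a melanoma antigen, was at 7399.5, 10429 and 10560.2 in A375 and 28.2, 11.5 and 13.2 in 253J (log2 difference 9.08 ± 0.31 SE, adjusted p = 8.71e-08). FMOD, fibromodulin, was at 1548, 1899 and 1865 in A375 and 4.84, 0 and 2.03 in 253J (log2 difference 9.40 ± 0.56 SE, adjusted p = 1.45e-06). All 3 were low in 253J, with 253J replicate 1 the highest of its line in each. SPP1, osteopontin, was at 48826, 50486 and 59520.4 in 253J and 1540.3, 2902 and 2781 in A375 (log2 difference -4.51 ± 0.23 SE, adjusted p = 6.13e-07). TGFBI was at 6658, 6440.3 and 6215 in 253J and 454, 422 and 428 in A375 (log2 difference -3.89 ± 0.06 SE, adjusted p = 5.78e-09). SDC1, the syndecan of epithelia, was at 4319, 4439.9 and 2689 in 253J and 359, 318 and 336 in A375 (log2 difference -3.46 ± 0.18 SE, adjusted p = 7.24e-07). SPARC and FN1, genes of the matrix of many mesenchymal cells, were abundant in both lines and higher in A375. SPARC was at 34179, 43123 and 42059 in A375 and 17982, 17921 and 22296 in 253J (log2 difference 1.04 ± 0.13 SE). FN1 was at 13843, 10645 and 11069 in A375 and 5019, 5099 and 7968 in 253J (log2 difference 1.00 ± 0.19 SE).

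The enzymes that modify and crosslink collagen differed one by one. Of 26 tested of 29 listed, 5 were 4-fold higher in A375 (19.2%) and 4 in 253J (15.4%). LOXL4 was at 6123, 9115 and 8931 in A375 and 14.6, 6.27 and 2.03 in 253J (log2 difference 10.14 ± 0.52 SE, adjusted p = 6.37e-07). LOXL3 was at 7681, 7093 and 6747 in A375 and 25.3, 4.45 and 5.08 in 253J (log2 difference 9.55 ± 0.53 SE, adjusted p = 1.07e-06). LOXL2, a further crosslinking oxidase, was at 9335, 9118 and 9408 in 253J and 2646, 2642 and 2809.6 in A375 (log2 difference -1.78 ± 0.05 SE, adjusted p = 5.99e-08). The oxidases thus lay in both directions. PLOD2, which hydroxylates lysines of collagen ends, was at 6246, 6329 and 4919.7 in 253J and 103, 74.4 and 82.5 in A375 (log2 difference -6.06 ± 0.14 SE, adjusted p = 2.18e-08). PLOD3 was at 15083, 15093 and 15515 in A375 and 3719.9, 3500.2 and 3531 in 253J (log2 difference 2.09 ± 0.06 SE, adjusted p = 3.42e-08). LOXL3 shares exon bases with HTRA2 and DOK1 on the other strand, and its size is uncertain to that extent.

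Of 34 matrix proteases and inhibitors tested of 47 listed, 12 were 4-fold higher in A375 (35.3%) and 8 in 253J (23.5%). MMP2, a gelatinase, was at 856, 521 and 586 in A375 and 1.92, 0 and 1.02 in 253J (a ratio of 681, 95% counting interval 233 to 3310.0). MMP8, a collagenase, was at 907, 1013 and 1054 in A375 and 0, 2.63 and 0 in 253J (a ratio of 1030.0, 95% counting interval 353 to 5010.0). SERPINE2, an inhibitor of thrombin and plasminogen activators, was at 72179, 71032 and 69891 in A375 and 1239, 1137 and 1045 in 253J (log2 difference 5.96 ± 0.07 SE, adjusted p = 4.2e-09). The first 2 had 3 reads or fewer in 253J. PLAU, the urokinase activator of plasminogen, was at 7592, 7487 and 8958 in 253J and 1.94, 4.78 and 5.85 in A375 (log2 difference -10.67 ± 0.29 SE, adjusted p = 3.5e-08). PLAT, the tissue-type activator, was at 6660.5, 5823 and 5756 in A375 and 1208, 1161 and 749 in 253J (log2 difference 2.58 ± 0.17 SE, adjusted p = 3.05e-06). The 2 plasminogen activators therefore had opposite directions. ADAMTS9, a protease of proteoglycans, was at 1818, 1863 and 1708 in 253J and 1.94, 5.76 and 0.97 in A375 (log2 difference -9.04 ± 0.40 SE, adjusted p = 3.01e-07). MMP7, a protease of glandular epithelia, was at 649, 632 and 605 in 253J with 0.97, 0 and 0 in A375. MMP14, the membrane-bound activator of MMP2, did not pass the test, at 2343, 2370.3 and 2323 in A375 and 2206, 2024 and 2333 in 253J (log2 difference 0.10, adjusted p = 0.182).

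In glycolysis single genes were set apart. Of 30 glycolysis genes tested of 31 listed, 5 were 4-fold higher in A375 (16.7%) and 0 in 253J, and the median was -0.12. HK1, the hexokinase of most tissues, was at 5387, 6009 and 5932 in A375 and 19.5, 10.6 and 10.2 in 253J (log2 difference 8.70 ± 0.22 SE, adjusted p = 2.84e-08). HK2 did not pass the test, at 2527, 2278 and 2323 in A375 and 2455, 2320.4 and 1661 in 253J (log2 difference 0.17, adjusted p = 0.303). SLC2A3, a high-affinity glucose transporter, was at 832, 1302 and 1223 in A375 and 1.92, 0.91 and 1.02 in 253J (log2 difference 8.94 ± 0.25 SE, adjusted p = 3.95e-08). SLC2A1 did not pass the test, at 3595, 2205 and 2183 in A375 and 3621, 3415 and 2437 in 253J (adjusted p = 0.293). PDK4, which turns off pyruvate dehydrogenase, was at 2031, 5383 and 5281 in A375 and 70.0, 55.1 and 86.6 in 253J (log2 difference 5.78 ± 0.36 SE, adjusted p = 2.12e-06). The 12 genes of the list that were higher in 253J all differed by less than 4-fold, among them ALDOA at 68589, 68837 and 60586 in 253J and 26305, 24558 and 24879 in A375 (log2 difference -1.38 ± 0.09 SE, adjusted p = 2.42e-06) and PKM (log2 difference -0.84 ± 0.11 SE).

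Of 34 genes of the citric acid cycle and its entry points tested of 35 listed, 19 were higher in A375 and 7 in 253J. At 4-fold they were 2 and 1 (5.88% and 2.94%), below the shares of all genes. The malic enzymes were exchanged between the lines. Cytosolic ME1 was at 788, 821 and 851 in A375 and 1.92, 0.91 and 2.03 in 253J (log2 difference 8.32 ± 0.22 SE, adjusted p = 3.04e-08). Mitochondrial ME3 was at 349, 317 and 359.6 in 253J and 0.97, 0 and 2.92 in A375 (log2 difference -7.44 ± 0.45 SE, adjusted p = 1.59e-06). PC, pyruvate carboxylase, was at 646, 945 and 907 in A375 and 89.4, 93.3 and 119 in 253J (log2 difference 3.03 ± 0.17 SE, adjusted p = 1.23e-06). Of the 49 nuclear-encoded respiratory chain genes tested 0 reached 4-fold, and 24 were higher in A375 and 15 in 253J at any size. Among 15 mitochondrially encoded transcripts the median was -0.65, with 8 higher in 253J and 2 in A375. MT-RNR2, the large ribosomal RNA, was at 282266, 297138 and 315334 in 253J and 60961, 77815 and 75187 in A375 (log2 difference -2.07 ± 0.14 SE, adjusted p = 3.33e-06). MT-ND4 did not pass the test (log2 difference -0.06, adjusted p = 0.703). The 2 calls towards A375, MT-CYB (log2 difference 0.32 ± 0.10 SE, adjusted p = 0.0173) and MT-ATP8 (log2 difference 0.34 ± 0.13 SE, adjusted p = 0.0357), were lost in several alternative fits.

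Redox enzymes marked 253J. Of 34 genes of glutathione metabolism and the NRF2 programme tested of 38 listed, 24 were higher in 253J (9 at 4-fold, 26.5%). Another 8 were higher in A375 (3 at 4-fold, 8.82%), and the median was -1.29. AKR1B10, an aldo-keto reductase, was at 16657, 17455 and 20698 in 253J and 9.72, 9.67 and 6.82 in A375 (log2 difference -10.88 ± 0.14 SE, adjusted p = 4.39e-09). AKR1C1 was at 7665, 8170.3 and 10537 in 253J and 2.92, 1.95 and 5.85 in A375 (log2 difference -10.99 ± 0.29 SE, adjusted p = 3.2e-08). AKR1C1, AKR1C2 and AKR1C3 are close in sequence, so the split of reads among them is uncertain. Both were near 0 in A375. TXNRD1, thioredoxin reductase, was at 33779.7, 34515 and 39909 in 253J and 5713, 5045 and 4922 in A375 (log2 difference -2.79 ± 0.09 SE, adjusted p = 8.15e-08). GCLM, the modifier subunit of glutathione synthesis, was at 2809, 2741 and 2667 in 253J and 935, 736 and 731 in A375 (log2 difference -1.78 ± 0.10 SE, adjusted p = 1.03e-06). A375 kept substantial levels of both. SLC7A11, the cystine importer, was at 2085, 2124 and 2538 in 253J and 302, 307 and 335 in A375 (log2 difference -2.83 ± 0.09 SE, adjusted p = 7.47e-08). Against this direction NQO1 was slightly higher in A375, at 10981, 10293 and 10012 in A375 and 7500.1, 7961 and 8759 in 253J (log2 difference 0.37 ± 0.08 SE, adjusted p = 0.0024). NFE2L2, the gene of NRF2 itself, was at 3564, 3083 and 3176 in A375 and 2069, 2127 and 2491 in 253J (log2 difference 0.56 ± 0.09 SE, adjusted p = 0.0006). KEAP1, its inhibitor, was slightly higher in 253J (log2 difference -0.34 ± 0.06 SE).

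Of 22 genes of retinoid and aldehyde metabolism and related enzymes tested of 35 listed all 22 were called, 16 higher in 253J (10 at 4-fold, 45.5%) and 6 in A375 (2 at 4-fold, 9.09%), with a median of -1.30. The retinaldehyde dehydrogenases were exchanged between the lines. ALDH1A3 was at 7793, 6868 and 6842 in A375 and 11.7, 6.27 and 8.12 in 253J (log2 difference 9.57 ± 0.19 SE, adjusted p = 1.19e-08). ALDH1A1, given above, was the form of 253J. CRABP2, which carries retinoic acid to the nucleus, was at 1781, 1690.1 and 1359.8 in 253J and 4.86, 6.74 and 3.9 in A375 (log2 difference -8.05 ± 0.20 SE, adjusted p = 2.81e-08). CYP26B1, which degrades it, was at 331, 327 and 336 in 253J with 0.97, 0 and 0 in A375. RXRG, a retinoid receptor, was at 1495, 2457 and 2527 in A375 and 3.94, 0 and 0 in 253J (log2 difference 10.27 ± 0.60 SE, adjusted p = 1.32e-06). The receptor RXRG was near 0 in 253J and the binding protein in A375. RXRA, the common form, was at 1644, 1631 and 1706 in 253J and 150.3, 140.0 and 139 in A375 (log2 difference -3.53 ± 0.07 SE, adjusted p = 1.19e-08). CA2, a carbonic anhydrase, was at 7922, 8399 and 9666 in 253J and 3.89, 2.93 and 3.9 in A375 (log2 difference -10.89 ± 0.13 SE, adjusted p = 4.2e-09). ALDH2, which clears acetaldehyde, was at 872, 925 and 1249 in 253J with 0, 0.98 and 0 in A375.

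In the lists of lipid metabolism few genes were far apart. Of 27 cholesterol genes 1 was 4-fold higher in A375 (3.7%) and 2 in 253J (7.41%). Of 32 fatty acid genes 3 were 4-fold higher in A375 (9.38%) and 1 in 253J (3.12%). LPL, lipoprotein lipase, is in neither list and was far apart, at 2665, 3415 and 3273 in A375 and 3.94, 0 and 3.05 in 253J (log2 difference 10.16 ± 0.54 SE, adjusted p = 8.12e-07). CYP51A1, a sterol demethylase, was at 156, 197 and 211 in A375 and 13.6, 10.6 and 13.2 in 253J (log2 difference 3.80 ± 0.19 SE, adjusted p = 5.68e-07). ELOVL7, a fatty acid elongase, was at 894, 945 and 876 in 253J and 1.94, 4.78 and 2.92 in A375 (log2 difference -7.80 ± 0.25 SE, adjusted p = 6.79e-08). Among 27 genes of serine and one-carbon metabolism ALDH1L2, a mitochondrial folate enzyme, was at 346, 381 and 397 in A375 and 1.01, 0.91 and 3.05 in 253J (log2 difference 7.23 ± 0.30 SE, adjusted p = 2.43e-07). PHGDH, the entry to serine synthesis, was at 3198, 3311 and 3250.1 in A375 and 1428, 1483 and 1966 in 253J (log2 difference 1.02 ± 0.12 SE, adjusted p = 7.59e-05).

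Growth factor receptors were among the lists furthest from the background. Of 34 receptor tyrosine kinases tested of 49 listed all 34 were called, 15 higher in A375 (10 at 4-fold, 29.4%) and 19 in 253J (15 at 4-fold, 44.1%). EGFR was at 4873, 4834 and 4340.1 in 253J and 21.3, 19.3 and 28.2 in A375 (log2 difference -7.63 ± 0.14 SE, adjusted p = 9.07e-09). MET, the receptor of hepatocyte growth factor, was at 7599, 7555 and 7126 in 253J and 665, 758 and 712 in A375 (log2 difference -3.38 ± 0.07 SE, adjusted p = 1.08e-08). FGFR1 was at 4546, 4180.3 and 3683 in 253J and 108, 113 and 123 in A375 (log2 difference -5.16 ± 0.10 SE, adjusted p = 9.07e-09). EPHA5, an ephrin receptor, was at 1118, 1095 and 1398 in 253J and 2.92, 0.98 and 0 in A375 (log2 difference -9.24 ± 0.44 SE, adjusted p = 4.56e-07). These 4 receptors were far lower in every A375 library. EPHA3, an ephrin receptor, was at 3633, 5396 and 5382 in A375 and 17.5, 4.45 and 5.08 in 253J (log2 difference 9.12 ± 0.44 SE, adjusted p = 4.54e-07). DDR2, a receptor for fibrillar collagen, was at 1836, 1901 and 1982 in A375 and 7.77, 7.08 and 3.05 in 253J (log2 difference 8.18 ± 0.28 SE, adjusted p = 9.32e-08). IGF1R, the receptor of insulin-like growth factors, was at 2334, 2335 and 2368 in A375 and 447, 485 and 446 in 253J (log2 difference 2.35 ± 0.06 SE, adjusted p = 2.98e-08). With ERBB3, given above, these were higher in A375. DDR1, the epithelial relative of DDR2, was at 2320.4, 2279 and 2621 in 253J and 756, 812 and 767 in A375 (log2 difference -1.62 ± 0.07 SE, adjusted p = 3.08e-07).

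Ligands were split too. Of 36 growth factors tested of 47 listed, 17 were 4-fold higher in 253J (47.2%) and 8 in A375 (22.2%). AREG, a ligand of EGFR, was at 5569.6, 5781 and 6784 in 253J and 1.94, 4.78 and 4.87 in A375 (log2 difference -10.34 ± 0.26 SE, adjusted p = 2.84e-08). BTC, another, was at 259, 257 and 267 in 253J and 2.92, 1.95 and 0.97 in A375. NRG1, the ligand of ERBB3, was at 1875, 1913 and 2562 in 253J and 8.75, 1.95 and 4.87 in A375 (log2 difference -8.57 ± 0.39 SE, adjusted p = 3.61e-07). NRG1 was thus high where its receptor ERBB3 was low. KITLG, the ligand of KIT, was at 2930.2, 3079.6 and 3437 in 253J and 65, 46.4 and 61.1 in A375 (log2 difference -5.76 ± 0.13 SE, adjusted p = 2.18e-08). In A375, HGF, the ligand of MET, was at 81.5, 131 and 132 with no read in 253J (at least 120.0-fold higher). GDNF, a neurotrophic factor, was at 727, 909 and 913 in A375 and 1.92, 0 and 0 in 253J (a ratio of 1330.0, 95% counting interval 367 to 11000.0). ANGPT1, a vessel growth factor, was at 337 ± 38.5 in A375 and 0.336 ± 0.583 in 253J (SD, n = 3; a ratio of 1050.0, 95% counting interval 189 to 41600.0).

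Genes that report signalling through ERK were mostly higher in A375, 19 of 27 tested, with 5 at 4-fold, while 7 were higher in 253J, 3 of them at 4-fold. DUSP4, a phosphatase that dampens ERK in the nucleus, was at 6053, 8539 and 8658 in A375 and 52.5, 44.5 and 33.6 in 253J (log2 difference 7.45 ± 0.19 SE, adjusted p = 2.84e-08). SPRY4, a feedback inhibitor, was at 9476, 11031 and 11407 in A375 and 585, 533 and 561 in 253J (log2 difference 4.24 ± 0.08 SE, adjusted p = 1.07e-08). DUSP6, the cytosolic phosphatase, was at 3087, 3184 and 3081 in A375 and 744, 768 and 972 in 253J (log2 difference 1.92 ± 0.10 SE, adjusted p = 7.61e-07). CCND1, cyclin D1, was at 7318, 5825 and 5828 in A375 and 1956, 1978 and 1594 in 253J (log2 difference 1.78 ± 0.12 SE, adjusted p = 2.81e-06). These 4 genes were higher in every A375 library than in any of 253J. DUSP5 had the opposite direction, at 2998, 3113 and 3708 in 253J and 355, 391 and 398 in A375 (log2 difference -3.09 ± 0.09 SE, adjusted p = 5.48e-08). MYC, which ERK stabilizes as a protein, was at 3958, 3824 and 4649 in 253J and 1220.1, 1655 and 1663 in A375 (log2 difference -1.46 ± 0.13 SE, adjusted p = 1.84e-05). In the list of immediate early and heat shock genes, 29 tested, 7 were 4-fold higher in A375 (24.1%) and 0 in 253J. NR4A1, an orphan nuclear receptor, was at 1784, 2319 and 2341 in A375 and 16.6, 10.6 and 35.6 in 253J (log2 difference 6.77 ± 0.37 SE, adjusted p = 9.59e-07). EGR3, an early zinc-finger factor, was at 372, 500.3 and 542 in A375 and 16.6, 10.6 and 18.4 in 253J (log2 difference 4.88 ± 0.24 SE, adjusted p = 4.82e-07). Kinases of the cascade differed less. BRAF was at 532, 571 and 638 in A375 and 261, 280.0 and 297 in 253J (log2 difference 1.05 ± 0.10 SE, adjusted p = 2.05e-05). MAP2K1, which did not pass, was at 1053, 980.4 and 975 in A375 and 1260.4, 1335 and 876 in 253J (adjusted p = 0.289).

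In the TGF-beta and BMP list, 39 tested of 49, 9 genes were 4-fold higher in A375 (23.1%) and 7 in 253J (17.9%). Antagonists lay on both sides. FST, which binds activin, was at 1085, 1106 and 1212 in A375 and 1.01, 1.82 and 2.03 in 253J (log2 difference 8.78 ± 0.20 SE, adjusted p = 1.84e-08). BAMBI, a pseudoreceptor, was at 1805, 1642 and 1672 in A375 and 32.1, 28.4 and 13.2 in 253J (log2 difference 6.15 ± 0.29 SE, adjusted p = 4.26e-07). NOG, which binds BMPs, was at 383, 346 and 220.0 in 253J and 0, 1.95 and 0 in A375 (a ratio of 495, 95% counting interval 137 to 4090.0). TGFB1 was at 2553 ± 249.9 in 253J and 332 ± 60.1 in A375 (SD, n = 3; log2 difference -2.95 ± 0.14 SE, adjusted p = 4.44e-07). The BMP target ID1 was at 7144, 7399.6 and 7597 in 253J and 851, 952 and 932 in A375 (log2 difference -3.02 ± 0.06 SE, adjusted p = 1.38e-08). Of the WNT list, 32 tested of 54, 7 were 4-fold higher in A375 and 4 in 253J. SFRP1, a secreted antagonist, was at 6527, 7842 and 7768 in A375 and 9.69, 5.36 and 6.09 in 253J (log2 difference 9.87 ± 0.19 SE, adjusted p = 1.12e-08). LEF1, a nuclear effector, was at 1534, 1604 and 1576 in A375 and 186, 177 and 130.3 in 253J (log2 difference 3.27 ± 0.13 SE, adjusted p = 1.94e-07). The ligand WNT7B was at 2000.5, 1981 and 1972 in 253J and 1.94, 0.98 and 0 in A375 (a ratio of 2060.0, 95% counting interval 703 to 9970.0). AXIN2, a general target gene, was at 55.4, 40.9 and 38.7 in 253J and 8.75, 5.76 and 3.9 in A375 (log2 difference -2.73 ± 0.30 SE, adjusted p = 6.17e-05).

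NOTCH ligands were split by type, JAG1 and JAG2 being higher in 253J and DLL3 and DLL4 in A375. JAG1 was at 2822, 2793 and 3267 in 253J and 102, 84.1 and 91.2 in A375 (log2 difference -4.99 ± 0.10 SE, adjusted p = 1.18e-08). JAG2 was at 88.5, 97.8 and 90.7 in 253J and 0.97, 0 and 0 in A375. DLL3 was at 164, 212 and 193 in A375 and 1.01, 0 and 0 in 253J (a ratio of 592, 95% counting interval 106 to 23400.0). DLL4 was at 80.5, 269.5 and 237 in A375 and 2.93, 0.91 and 1.02 in 253J (log2 difference 6.13 ± 0.50 SE, adjusted p = 9.31e-06). SHH, the hedgehog ligand, was at 384, 373 and 427 in 253J with no read in A375 (at least 408-fold higher). GLI1, a target of the pathway, was at 143, 171 and 189 in 253J and 3.89, 8.69 and 8.77 in A375 (log2 difference -4.44 ± 0.30 SE, adjusted p = 3.12e-06). The receptor and target PTCH1 was at 735, 725 and 781 in A375 and 382, 400.1 and 517 in 253J (log2 difference 0.80 ± 0.12 SE, adjusted p = 0.000356). Of 28 YAP and TEAD genes tested 2 were 4-fold higher in each line, a share of 7.14% on each side.

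Inflammatory genes were mostly higher in 253J. Of 39 NF-kappaB, cytokine and chemokine genes tested of 50 listed, 15 were 4-fold higher in 253J (38.5%) and 4 in A375 (10.3%). CCL2, the monocyte chemokine, was at 2506, 2592 and 2295 in 253J and 0.97, 0.98 and 0.97 in A375 (a ratio of 2560.0, 95% counting interval 875 to 12400.0). TNFSF10, the death ligand TRAIL, was at 1495, 1542 and 1843 in 253J and 1.94, 0.98 and 0 in A375 (a ratio of 1680.0, 95% counting interval 574 to 8140.0). CXCR4, a chemokine receptor, was at 910.2, 963 and 819 in 253J with 0, 0 and 0.97 in A375. CXCL8, interleukin 8, was at 1443, 1417 and 965 in 253J and 342, 171 and 172 in A375 (log2 difference -2.53 ± 0.28 SE, adjusted p = 6.49e-05). The subunit NFKB1 did not pass the test, at 1481, 1416 and 1458 in 253J and 1423, 1408 and 1298 in A375 (log2 difference -0.08, adjusted p = 0.269). NFKB2 was at 3281, 3169 and 2408 in 253J and 728, 656 and 676 in A375 (log2 difference -2.09 ± 0.12 SE, adjusted p = 1.12e-06).

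Of 50 interferon and antigen presentation genes tested of 52 listed, 27 were higher in 253J (16 at 4-fold, 32.0%) and 17 in A375 (9 at 4-fold, 18%). TAP1, the peptide transporter of antigen presentation, was at 1329, 1248 and 1260.0 in 253J and 246, 232 and 237 in A375 (log2 difference -2.42 ± 0.07 SE, adjusted p = 4e-08). PSMB9, a subunit of the immunoproteasome, was at 867, 888 and 1019.6 in 253J and 144, 143 and 150.4 in A375 (log2 difference -2.66 ± 0.09 SE, adjusted p = 8.92e-08). HLA-DRA, a class II chain, had the opposite direction and was at 642, 649 and 645 in A375 and 0, 0.91 and 2.03 in 253J (a ratio of 672, 95% counting interval 230.0 to 3260.0). Its regulator CIITA was at 328, 251 and 285 in A375 and 34, 34.7 and 24.5 in 253J (log2 difference 3.18 ± 0.18 SE, adjusted p = 1.28e-06). The antiviral genes were split. MX2 was at 3420.0, 3613 and 3700.2 in A375 and 8.78, 0 and 2.03 in 253J (log2 difference 10.17 ± 0.69 SE, adjusted p = 3.32e-06). IFITM3 was at 3986, 3881 and 3866 in A375 and 12.6, 9.81 and 11.2 in 253J (log2 difference 8.33 ± 0.11 SE, adjusted p = 4.39e-09). In the other direction, OAS1 was at 872, 861 and 1006 in 253J and 83.4, 107 and 99.9 in A375 (log2 difference -3.23 ± 0.12 SE, adjusted p = 1.37e-07). IFIT1 was at 402, 463 and 436 in 253J and 42.7, 31.8 and 47.6 in A375 (log2 difference -3.40 ± 0.17 SE, adjusted p = 5.21e-07). The DNA sensor CGAS (MB21D1 in the tables) was at 336, 378 and 255 in 253J and 0, 1.95 and 0.97 in A375 (a ratio of 337, 95% counting interval 115 to 1640.0). Its partner STING1 (TMEM173 in the tables) was at 547, 541 and 593 in A375 and 3.94, 1.82 and 2.03 in 253J (log2 difference 7.33 ± 0.24 SE, adjusted p = 7.77e-08). HLA genes are highly similar to one another, so their single values are uncertain.

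Markers of leukocytes, endothelium and blood were low, while the list of fibroblast and muscle markers was high in 253J through RGS5. Of 20 leukocyte genes 2 were tested, and the summed level of the list was 91.2 to 114 in A375 and 82.4 to 109 in 253J, with PTPRC, the pan-leukocyte CD45, at 0.97, 9.67 and 6.82 in A375 and 0, 0.91 and 0 in 253J. The 18 endothelial and blood genes summed to 86.4 to 155 in A375 and 15.1 to 20.5 in 253J, of which KDR, the VEGF receptor, was at 56.2, 128 and 96 in A375 with no read in 253J. Of the 16 fibroblast and muscle genes 8 were tested, and the sum was 305 to 372 in A375 and 23270 to 24620 in 253J, where RGS5, a pericyte marker, alone was at 22735, 22931 and 23953 against 58.1, 55.1 and 47.6. COL1A1 of the same list was higher in 253J as given above, and the part of such cells in the results was not tested. In bulk RNA, fewer cells with a transcript and less of it per cell cannot be told apart.

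Next to each other on chromosome 9, MTAP and CDKN2A were both near 0 in 253J. MTAP, which salvages adenine, was at 1374, 1411 and 1461 in A375 and 17.5, 17.8 and 11.2 in 253J (log2 difference 6.45 ± 0.18 SE, adjusted p = 3.95e-08). CDKN2A, the gene of the cell cycle inhibitor p16 and of ARF, was at 23.2, 46.4 and 34.9 in A375 with no read in 253J (at least 36.3-fold higher). MTAP lies at chr9:21802543-21937651 on the plus strand and CDKN2A at chr9:21967753-21995301 on the minus strand of GRCh38. Of the protein-coding genes with values on either side, KLHL9 was at 915, 941 and 1089 in 253J and 539, 561 and 531 in A375. DMRTA1 was at 219, 204 and 225 in 253J and 47.5, 65.7 and 75.6 in A375. Further out, TUSC1 was at 512, 569.8 and 559 in 253J and 1.94, 0 and 0 in A375. KLHL9, DMRTA1 and TUSC1 were called higher in 253J. HACD4, beyond KLHL9, was higher in A375, at 44.6, 46.4 and 55.3 in A375 and 2.93, 5.36 and 1.02 in 253J (log2 difference 3.75 ± 0.40 SE). CDKN2B-AS1, an antisense transcript that shares exon bases with CDKN2A, was at 145, 146 and 153 in 253J with no read in A375. CDKN2B was not analysed here.

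Single genes of the cell cycle and of cell death also differed. CDKN1A, an inhibitor of cyclin-dependent kinases, was at 4498, 4717 and 4986 in 253J and 1661, 1508 and 1522 in A375 (log2 difference -1.60 ± 0.07 SE, adjusted p = 2.17e-07). FAS, a death receptor, was at 1596, 1569 and 1217 in 253J and 195, 115 and 94.2 in A375 (log2 difference -3.49 ± 0.25 SE, adjusted p = 4.57e-06). TERT, the catalytic subunit of telomerase, was at 139, 171 and 137 in A375 and 30.2, 29.3 and 21.4 in 253J (log2 difference 2.43 ± 0.19 SE, adjusted p = 7.75e-06). Cyclin D2, CCND2, was at 1095, 1182 and 1557 in 253J and 0.97, 0.98 and 0 in A375 (a ratio of 1970.0, 95% counting interval 546 to 16300.0), the opposite direction to cyclin D1. Of 44 mitosis and replication genes and 57 ribosomal protein genes 0 reached 4-fold, with median log2 differences of -0.05 and 0.05. MKI67, a proliferation marker, was at 16335, 15819 and 12221 in 253J and 7955, 8005 and 8352 in A375 (log2 difference -0.86 ± 0.11 SE, adjusted p = 0.000164).

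Receptors of particle uptake differed in both directions. Of 31 uptake receptors and bridging molecules tested of 36 listed, 6 were 4-fold higher in A375 (19.4%) and 7 in 253J (22.6%), against 10.5% and 12.3% of all genes. MEGF10, a receptor for apoptotic cells, was at 598, 451 and 479 in A375 and 1.01, 0.91 and 0 in 253J (a ratio of 796, 95% counting interval 220.0 to 6580.0). MERTK, a receptor of the same process, was at 131, 322 and 275 in A375 and 33.1, 19.5 and 15.3 in 253J (log2 difference 3.33 ± 0.39 SE, adjusted p = 8.48e-05). HAVCR1, which also binds phosphatidylserine, was high in 253J as given above. MSR1, a scavenger receptor, was at 225, 213 and 338 in 253J with 0.97, 0 and 0 in A375. Of 36 actomyosin genes tested 2 were 4-fold higher in A375, TPM2 and MYH10 (5.56%), and 1 in 253J, MYLK (2.78%). TPM2, a tropomyosin, was at 2157, 1862 and 1857 in A375 and 7.77, 1.82 and 5.08 in 253J (log2 difference 8.52 ± 0.37 SE, adjusted p = 2.8e-07). MYH10, a non-muscle myosin, was at 7095, 7313 and 7651 in A375 and 857, 868 and 836 in 253J (log2 difference 3.10 ± 0.05 SE, adjusted p = 8.77e-09). MYLK, the myosin light chain kinase, was at 1451, 1462 and 1608 in 253J and 261, 362 and 312 in A375 (log2 difference -2.28 ± 0.12 SE, adjusted p = 7.3e-07). LMNA, the lamin of stiff nuclei, was at 25641, 21770.0 and 22493 in A375 and 10041, 9823 and 8603 in 253J (log2 difference 1.30 ± 0.09 SE, adjusted p = 4.44e-06).

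By chromosome, protein-coding genes were shifted as blocks, given as a description with no test. The median log2 difference was -0.96 over 457 genes of chromosome X, -0.81 over 116 of chromosome 21, -0.59 over 516 of chromosome 9 and -0.44 over 495 of chromosome 10, all towards 253J. Towards A375 the medians were 0.40 over 719 genes of chromosome 11, 0.38 over 613 of chromosome 7 and 0.35 over 443 of chromosome 8, and the median over all genes tested was 0.03. In chromosome 21, 17.2% of the genes had the higher mean in A375, and in chromosome 11 it was 69.3%.

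Most genes that differed by 4-fold did so in the bead-positive branch too. Of 14917 genes tested there, 1538 (10.3%) were called and 4-fold higher in A375 and 1782 (11.9%) in 253J. Of the genes 4-fold higher in A375 in the negative branch, 1481 were tested in the positive branch and 1369 were 4-fold higher there too. For 253J it was 1601 of 1777, and 0 genes were 4-fold different in opposite directions. Across 14655 genes the log2 differences of the branches correlated at 0.982, a value over genes, which are not independent replicates. The positive libraries come from the same 2 lines and sorting rounds, so they repeat the comparison in other libraries and not in other lines. Below 4-fold, GATA3 did not keep its direction, with a log2 difference of -0.99 in the negative and 0.13 in the positive branch, where it did not pass (adjusted p = 0.745), and its change between branches did not pass either (adjusted p = 0.248). For DCT the log2 difference was 9.89 in the negative and 8.26 in the positive branch, for KRT19 -10.41 and -11.19, for ITGB4 -8.58 and -9.11 and for MTAP 6.45 and 6.71.

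**Figure D5:**
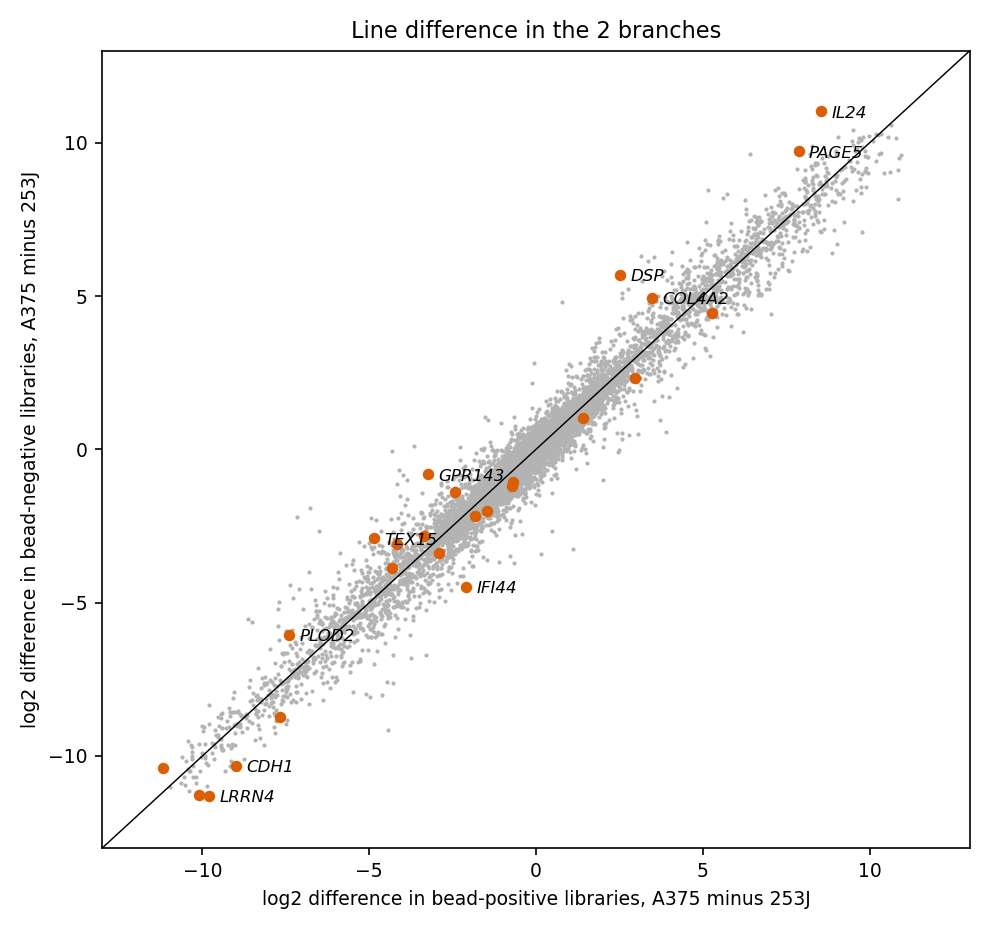
Log2 difference between A375 and 253J in the bead-positive (horizontal) and bead-negative (vertical) libraries for the 14655 genes tested in both, with the line of equal values. Orange points are 25 genes named by the rule whose line difference differed between the branches in the test of all 12 libraries, such as IL24, DSP and GPR143 above the line and IFI44 below it.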

How the data were processed

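Per the submitters' processing notes, reads were processed with cutadapt, STAR 2.4.2a, HTSeq and DESeq2 on GRCh38. The deposited signal values, from the authors, are read counts scaled by each library's size factor, separately for each line, and rounded to 0.1. Each value was a whole multiple of 1 read to within 0.0751, so the reads could be recovered. Tables were joined on 19423 genes, and 0 value columns were left unmapped. The 6 columns were rescaled by median of ratios and tested on log2(value + 1) with limma 3.58.1 in R 4.3.3, where the mean reached 10. P-values were adjusted over all genes tested by Benjamini and Hochberg. The fit was first run on simulated data with independent libraries and few changed genes. That setting differs from these libraries, so it does not check the error rate here. The fits with edgeR 4.0.16 and DESeq2 1.42.0 on recovered reads are alternatives. Where a line had no read, the fold is a lower bound from 3 reads over its 3 libraries. Where it had 1 to 3 reads, the ratio is given with a 95% exact interval of counting error only. Coordinates come from GENCODE 29, which matched 99.62% of gene IDs. Named genes were the top 12 per direction, up to 2 per list and direction with a mean of at least 50, and fixed markers, 195 in all. The text gives a selection of these, and other list members were chosen after their values were seen. Members and the 47 lists were chosen with earlier results of these data known, and lists overlap. Some genes are not reported here.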

Additional observations from a re-analysis of the deposited data

Results flagged for a closer look

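In a fit of all 12 libraries, the line difference itself was set against the bead branch, and 886 of 14932 genes tested had a line difference that was not the same in the bead-negative and bead-positive libraries by limma at an adjusted p of 0.05. Of these, 26 genes named by the rule are given here, and they were selected for this reason alone. Values below are the log2 difference between A375 and 253J in the negative branch minus that in the positive branch, so a positive value means that A375 stood higher relative to 253J among bead-negative cells.

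Genes of identity were among them. TYR had a value of 2.81 (adjusted p = 0.00156), with A375 at 68.5 ± 21.4 in the negative and 8.72 ± 2.12 in the positive libraries (SD, n = 3) and no read in 253J in either. GPR143 had a value of 2.41 (adjusted p = 0.00634), and its difference was -0.82 in the negative and -3.23 in the positive branch. IL24 had a value of 2.47 (adjusted p = 0.0125). DSP had a value of 3.19 (adjusted p = 0.0281), with A375 at 103 ± 13.9 in the negative and 43.6 ± 9.62 in the positive libraries, and 253J at 1.31 ± 1.49 and 8.09 ± 5.18 (SD, n = 3). PAGE5 had a value of 1.84, TEX15 of 1.96 and MAGED1 of -0.56. For epithelial genes the values were -1.32 for CDH1, -1.19 for MAL2, -1.49 for LRRN4, 0.78 for KRT19 and 1.04 for PPARG.

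Among adhesion and matrix genes the values were 1.08 for ITGA3, -0.33 for VCL, -0.62 for L1CAM, 1.46 for COL4A2, 0.43 for TGFBI and 1.34 for PLOD2. PLOD2 stood at 5831 ± 791 in negative and 7126 ± 1226 in positive 253J libraries, and at 86.5 ± 14.6 and 41 ± 5.73 in A375 (SD, n = 3). Among genes of metabolism they were 0.52 for SLC7A11, -0.83 for the amino acid transporter SLC1A4, -0.41 for the complex I subunit NDUFB9, -0.37 for ATP5G1, a subunit of ATP synthase, and -0.47 for MT-ND6. Among the remaining genes they were -2.38 for the interferon-induced IFI44, -1.04 for RGS5 and -0.47 for MET. In the 25 of these genes that were tested in both branches, the line difference had the same direction in both.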

How the results depend on the processing

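No named gene changed direction in any alternative, and 10653 to 11405 genes passed when 1 library was left out. The counts at 4-fold were 981 for A375 and 1205 for 253J with a mean of at least 50, where 11918 genes were tested. Leaving out 1 library gave 1497 to 1625 for A375 and 1714 to 1916 for 253J. With all genes kept 13739 passed, with edgeR 11411 and with DESeq2 11119. With low or high sample numbers alone 10980 and 10804 passed, a fit in which the lone libraries are assumed to vary like the others. Replicate numbers did not pair the libraries, since the deviations of same-numbered libraries correlated at 0.104, -0.067 and 0.119. With the replicate block 11472 genes passed. The deviations followed the sample numbers across the lines. Between libraries both of low or both of high number they correlated at 0.104, 0.115, 0.104 and 0.119. Between low and high numbers the correlations were -0.174 to -0.063. These values are linked, because the deviations of a line sum to 0. Scaling to the total moved the median log2 difference of all genes to 0.11 and the share of calls higher in A375 from 51.2% to 54.8%. GATA3 was lost in 4 fits, without 253J replicate 1 (-0.94) or 2 (-0.95), with high sample numbers alone (-0.99) and with same-set libraries averaged (-0.79), and MT-ATP8 and MT-CYB were lost in 7 and 6 fits. GPR143, ACTA2, BMPR1B, ANKRD1, JUN and CORO1A were lost once each. The cause was not tested. Depth limits genes with few reads, whose folds are given as bounds or with counting intervals.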
